A study of Mus musculus with 6 samples.

Results

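The serpin superfamily and Slpi, 55 genes of the 22180 that the array measured with a probe set of their own, were compared between CCR2+ and CCR2- haematopoietic stem cells. The rule uses symbols and no measured value, but it was set with earlier results of these data known, and Slpi, which is no serpin, was added to it by name. The members are every gene whose symbol is Serpin followed by a clade letter from a to i and a number (54 genes), and Slpi, each read from a probe set that lists a single gene. CCR2 is the receptor for monocyte chemoattractant proteins, best known on inflammatory monocytes. The cells were sorted from the bone marrow of C57BL/6J mice, with 3 CCR2- and 3 CCR2+ pools, each made from the marrow of 20 mice. No mutation, transgene or treatment is given for any pool, and the sources used here do not give the other surface markers of the sort, the animals' age or whether mice were shared between CCR2+ and CCR2- pools. All values below are log2 values from RMA (a method that corrects background, brings the arrays to 1 distribution and combines the probes of each set), so a difference of 1 is a 2-fold change. Each probe set has its own affinity, so a brighter probe set does not show more transcript than a dimmer one, and mean levels serve below only to sort probe sets into dim and bright.

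Most serpins are single-use inhibitors of serine proteases. The target protease cuts an exposed loop of the serpin, the loop snaps into the body of the serpin, and the protease stays trapped and deformed in a covalent complex. Clade letters follow sequence kinship: most clade A, C, D, F and G serpins are secreted and many circulate in plasma, whereas clade B serpins lack a classical secretion signal and largely work inside cells, where they protect leukocytes from their own granule proteases. Slpi is not a serpin but a small secreted inhibitor of the whey acidic protein type that blocks neutrophil elastase and cathepsin G. In marrow these proteases are made mainly by granulocyte precursors.

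No gene of the 22180, and so none of the 55, passed an adjusted p of 0.05 (limma with Benjamini-Hochberg adjustment over all genes, 0% called), so every difference below is a measured value that did not pass that threshold. At an unadjusted p of 0.05, 3 of the 55 were higher in CCR2+ pools (Slpi, Serpina11 and Serpina12), against 5.63% of all genes. At the same threshold 3 were lower (Serpinf1, Serpinb6a and Serpinb6b), against 6.61% of all genes. Shares of this size are near those of all genes. The lowest adjusted p among the 55 was 0.183, that of Slpi. The 3 pools of a kind are called biological replicates by the design, and the p-values measure the spread between such pools. An exact permutation test of 3 pools against 3 cannot give a p under 0.1.

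The upstream sequences of those 6 genes are shown because they are the members with the smallest p-values. Each is the 250 bases before the annotated transcript start from RefSeq (mouse assembly GRCm38.p6), written 5′ to 3′ on the strand of the gene, with matches to 5 searched motifs in capitals. Serpinb6b lies on the plus strand and the others on the minus strand. The window is chr2:164356508-164356757 for Slpi, chr12:103989958-103990207 for Serpina11, chr12:104044444-104044693 for Serpina12, chr11:75422624-75422873 for Serpinf1, chr13:34002795-34003044 for Serpinb6a and chr13:32965011-32965260 for Serpinb6b. Serpina11 and Serpinb6a each have 2 annotated starts, and the more upstream one was used.
Slpi: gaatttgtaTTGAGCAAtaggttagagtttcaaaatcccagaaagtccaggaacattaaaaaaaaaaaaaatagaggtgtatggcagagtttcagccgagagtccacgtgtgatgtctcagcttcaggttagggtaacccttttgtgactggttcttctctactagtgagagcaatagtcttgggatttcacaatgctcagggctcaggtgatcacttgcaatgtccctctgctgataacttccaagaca
Serpina11: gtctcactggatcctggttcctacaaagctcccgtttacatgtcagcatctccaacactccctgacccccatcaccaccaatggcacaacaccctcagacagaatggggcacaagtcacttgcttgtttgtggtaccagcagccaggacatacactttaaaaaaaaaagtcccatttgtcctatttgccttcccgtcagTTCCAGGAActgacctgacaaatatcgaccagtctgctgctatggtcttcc
Serpina12: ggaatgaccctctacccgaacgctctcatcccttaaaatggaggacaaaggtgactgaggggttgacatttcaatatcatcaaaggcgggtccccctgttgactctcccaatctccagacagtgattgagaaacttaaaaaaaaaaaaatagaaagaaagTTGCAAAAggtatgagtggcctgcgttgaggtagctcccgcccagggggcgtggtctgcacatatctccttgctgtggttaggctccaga
Serpinf1: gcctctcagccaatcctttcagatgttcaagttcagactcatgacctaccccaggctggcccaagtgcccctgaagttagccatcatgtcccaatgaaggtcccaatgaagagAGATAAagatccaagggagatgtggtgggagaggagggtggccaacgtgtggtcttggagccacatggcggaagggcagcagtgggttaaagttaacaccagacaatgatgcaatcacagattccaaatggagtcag
Serpinb6a: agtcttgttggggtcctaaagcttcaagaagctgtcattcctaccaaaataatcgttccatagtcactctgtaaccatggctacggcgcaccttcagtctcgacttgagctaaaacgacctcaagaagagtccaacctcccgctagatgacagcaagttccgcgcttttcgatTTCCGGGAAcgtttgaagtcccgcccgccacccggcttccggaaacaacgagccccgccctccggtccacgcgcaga
Serpinb6b: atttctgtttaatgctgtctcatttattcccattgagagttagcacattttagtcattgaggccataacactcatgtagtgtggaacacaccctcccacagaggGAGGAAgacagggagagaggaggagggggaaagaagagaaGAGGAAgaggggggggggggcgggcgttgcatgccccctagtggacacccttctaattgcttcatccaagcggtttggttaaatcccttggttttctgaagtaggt

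The motifs were searched on both strands, except the TATA box, which was searched on the gene's strand. The capitals in the Slpi window and those in the Serpina12 window are matches to the C/EBP pattern TTGCNNAA, the binding pattern of a family of myeloid and liver transcription factors, at 241 and 90 bases before the start. The pattern occurred in 9.56% of the 32851 windows of all annotated starts and in 12 of the 48 members that have a window (25%). Those of Serpina11 and Serpinb6a match the GAS pattern TTCNNNGAA, to which STAT proteins bind, at 51 and 77 bases before the start. It was present in 7.02% of all windows and in 5 of 48 member windows. The Serpinf1 window holds the GATA pattern AGATAA at 137 bases (9.99% of all windows, 7 of 48 members). The Serpinb6b window holds the PU.1 core GAGGAA at 146 and at 106 bases (23.3% of all windows, 13 of 48 members). TATAAA, the TATA box, was in none of the 6 windows, against 7.59% of all windows and 7 of 48 members. The member counts use only the most upstream window of each gene, whereas the share of all windows counts every annotated start. Many members are copies close in sequence, so their windows are not independent. Whether members differ from other genes in any pattern was not tested. The matches are letter matches and describe the sequence only. No pattern was shared by all 6 genes, nor by all 3 that were higher or all 3 that were lower.

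Slpi had the largest difference of the 55 genes and was higher in each CCR2+ pool than in any CCR2- pool. Its log2 values were 6.72, 6.61 and 7.08 in CCR2- replicates 1, 2 and 3 and 7.98, 8.25 and 7.35 in CCR2+ replicates 1, 2 and 3, in the order that is kept below. The means were 6.80 ± 0.24 and 7.86 ± 0.46 (SD, n = 3 each). The nearest pair, CCR2- replicate 3 and CCR2+ replicate 3, stood only a little apart. The difference was 1.05 ± 0.23 (SE; 95% interval 0.54 to 1.57), or 2.08-fold higher in CCR2+ pools, with a p of 0.0014 and an adjusted p of 0.183 (limma). Among all 22180 genes it ranked 14 from the highest difference and 166 by p, and 0.212% of genes had a larger difference in either direction. Leaving out any single pool kept it between 0.86 (without CCR2+ replicate 2) and 1.31 (without CCR2+ replicate 3). Slpi lies on chromosome 2 next to genes of seminal vesicle proteins. Of the 5 measured protein-coding genes on either side, 8 of 10 were above 0, 2 had an unadjusted p under 0.05, and their differences ran from -0.27 to 0.45.

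**Figure D1:**
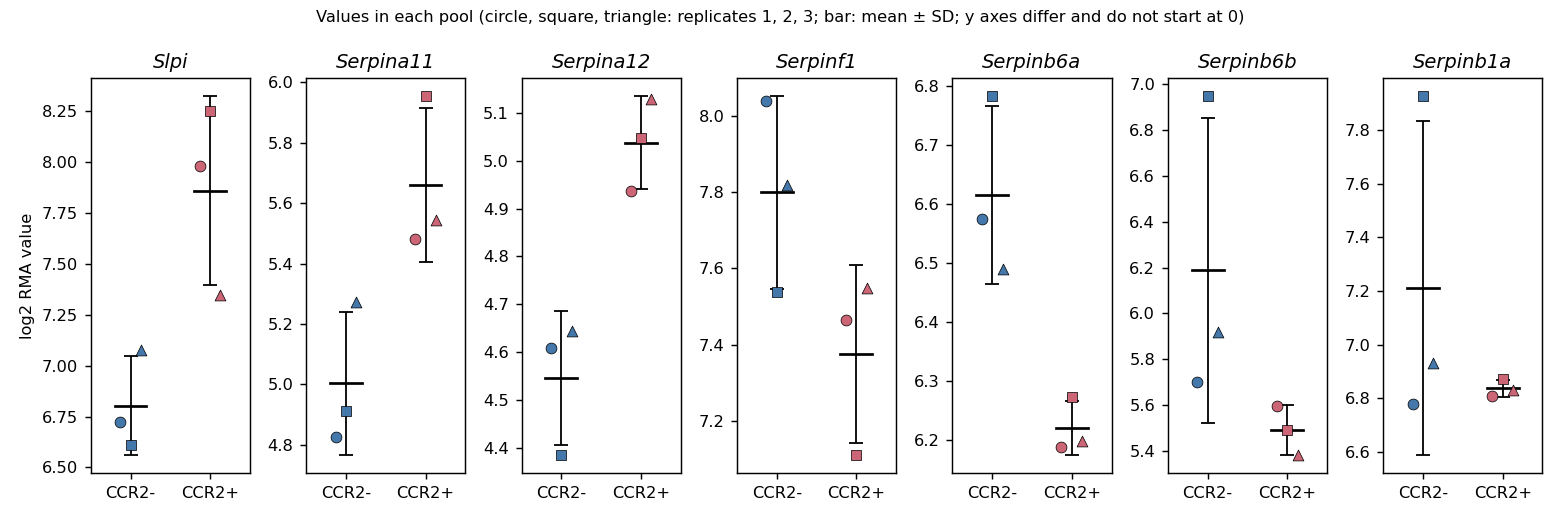
Log2 RMA values of 7 genes in each of the 6 pools, CCR2- at left and CCR2+ at right in each panel, with a marker for each replicate number and bars for the mean ± SD (n = 3). The pools do not overlap for Slpi, Serpina11, Serpina12, Serpinb6a and Serpinb6b, and the high CCR2- replicate 2 stands apart for Serpinb6b and Serpinb1a.

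Slpi is abundant in neutrophils, and marker genes of other marrow cells were read beside it. The mean of 15 neutrophil markers was 4.94, 5.26 and 5.13 in the CCR2- pools and 5.42, 5.70 and 5.17 in the CCR2+ pools. All 15 were above 0 in the CCR2+ minus CCR2- difference, with a median of 0.20 (13 of 15 with cyclic loess normalization, median 0.13), and 3 had an unadjusted p under 0.05. The CCR2+ pool with the highest Slpi, replicate 2, also had the highest neutrophil mean, and the CCR2+ pool with the lowest Slpi, replicate 3, had the lowest among CCR2+ pools. In CCR2- pools this match did not hold, since replicate 2 had the lowest Slpi and the highest neutrophil mean. The order of the CCR2+ pools was also not particular to neutrophil markers: the monocyte and erythroid means and Ccr2 had the same order. Granule genes of maturing neutrophils within the list ran from 0.01 ± 0.15 for Ltf (lactoferrin) and 0.20 ± 0.26 for Camp (cathelicidin), through 0.21 ± 0.13 for Mmp9 and 0.25 ± 0.17 for Mmp8, to 0.58 ± 0.14 for Lcn2 (lipocalin) and 0.62 ± 0.22 for Ngp (neutrophilic granule protein). The pools of Lcn2 and Ngp did not overlap, and CCR2+ pools were higher. Monocyte and macrophage markers were higher in 13 of 14 genes (median 0.31), and 4 were higher at an unadjusted p under 0.05. Their means were 5.79, 6.02 and 6.00 in CCR2- pools and 6.20, 6.49 and 6.03 in CCR2+ pools. Erythroid markers were higher in 13 of 13 (median 0.72), and 10 were higher at that threshold. Their means were 7.90, 8.32 and 8.33 in CCR2- and 8.71, 9.05 and 8.57 in CCR2+ pools. Stem cell identity genes were higher in only 1 of 16 (median -0.44), with 9 lower and 1 higher at that threshold. Their means were 8.20, 7.95 and 7.90 in CCR2- and 7.65, 7.37 and 7.70 in CCR2+ pools. The part of other cells in the difference of Slpi was not tested. In bulk pools such as these, fewer cells of a type and less RNA per cell cannot be told apart. The receptor used for the sort gave 5.63, 6.26 and 5.83 in CCR2- and 6.81, 7.10 and 6.18 in CCR2+ pools, a difference of 0.79 ± 0.24 with an adjusted p of 0.274 (limma), and its pools overlapped.

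**Figure D2:**
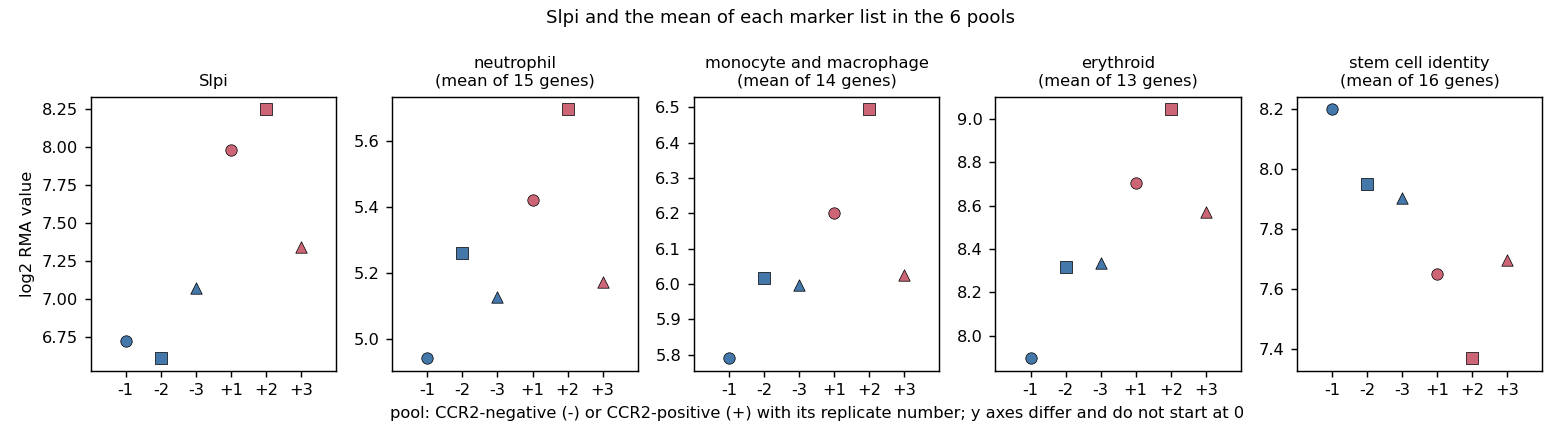
Log2 RMA values of Slpi and the mean log2 value of 4 marker lists in each of the 6 pools, 3 CCR2- (-1 to -3) and 3 CCR2+ (+1 to +3). In Slpi and in the neutrophil, monocyte and erythroid panels CCR2+ replicate 2 is the highest pool, and in the stem cell panel it is the lowest.

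Mast cell and basophil markers were higher in 10 of 12 genes (median 0.14), natural killer and T cell markers in 10 of 13 (median 0.11), and B lineage markers in 5 of 7 (median 0.13). Megakaryocyte and platelet markers were higher in 5 of 10 (median -0.02), and stromal and osteoblast markers in 7 of 10 (median 0.04). Endothelial markers, several of which stem cells also express, were higher in 2 of 10 (median -0.23), with 3 lower and 1 higher at an unadjusted p under 0.05. The 3 lower were Emcn (-0.92 ± 0.20), Tek (-0.82 ± 0.16) and Tie1 (-0.50 ± 0.19), of which Tek also stands in the stem cell list. The 1 higher was Plvap (0.48 ± 0.13), whose pools did not overlap. The megakaryocyte median turned to 0.06 with a second quantile normalization, which gave 7 of 10 higher. With cyclic loess 8 of 13 natural killer and T cell markers were higher, and 5 of 10 stromal markers with median centring.

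Over all 55 genes, 33 were higher and 22 lower in CCR2+ pools, that is 60% higher against 56.0% of all genes, and the median difference was 0.05 against 0.03. With cyclic loess normalization the split turned to 25 higher and 30 lower, so the members as a set had no direction that held across scalings. Differences were mostly small: 30 of 55 were under 0.1 in size, beside 9042 of the 22180 genes. The median size was 0.092, against 0.127 for all genes. The pools did not overlap in 6 genes that were higher (Slpi, Serpinc1, Serpinf2, Serpina1c, Serpina11 and Serpina12), against 10.8% of all genes, and in 2 that were lower (Serpinb6a and Serpinb6b), against 7.88%. The probe sets of 34 members were dim, with a mean under the 25th percentile of all gene means (4.66), those of 14 lay between it and the median (5.79), and 7 were at or above the median. Of the 34 members with dim probe sets, 22 were under 0.1 in size. The median size was 0.079 for these 34 and 0.123 for the other 21 members. Among the 34 members with dim probe sets none reached an unadjusted p of 0.05 and the differences ran from -0.25 to 0.31. The share called among all dim genes was not computed, so this is a count and not a trait of dim members. Over all genes, 1249 were higher and 1467 lower at that threshold, and 895 and 1325 with genes under the 25th percentile left out. The 7 at or above the median were Slpi and Serpinb9b, which were higher, and Serpinf1, Serpinb1a, Serpinb6a, Serpinb6b and Serpine3, which were lower. Over all genes at or above the median level, the median difference was -0.033.

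**Figure D3:**
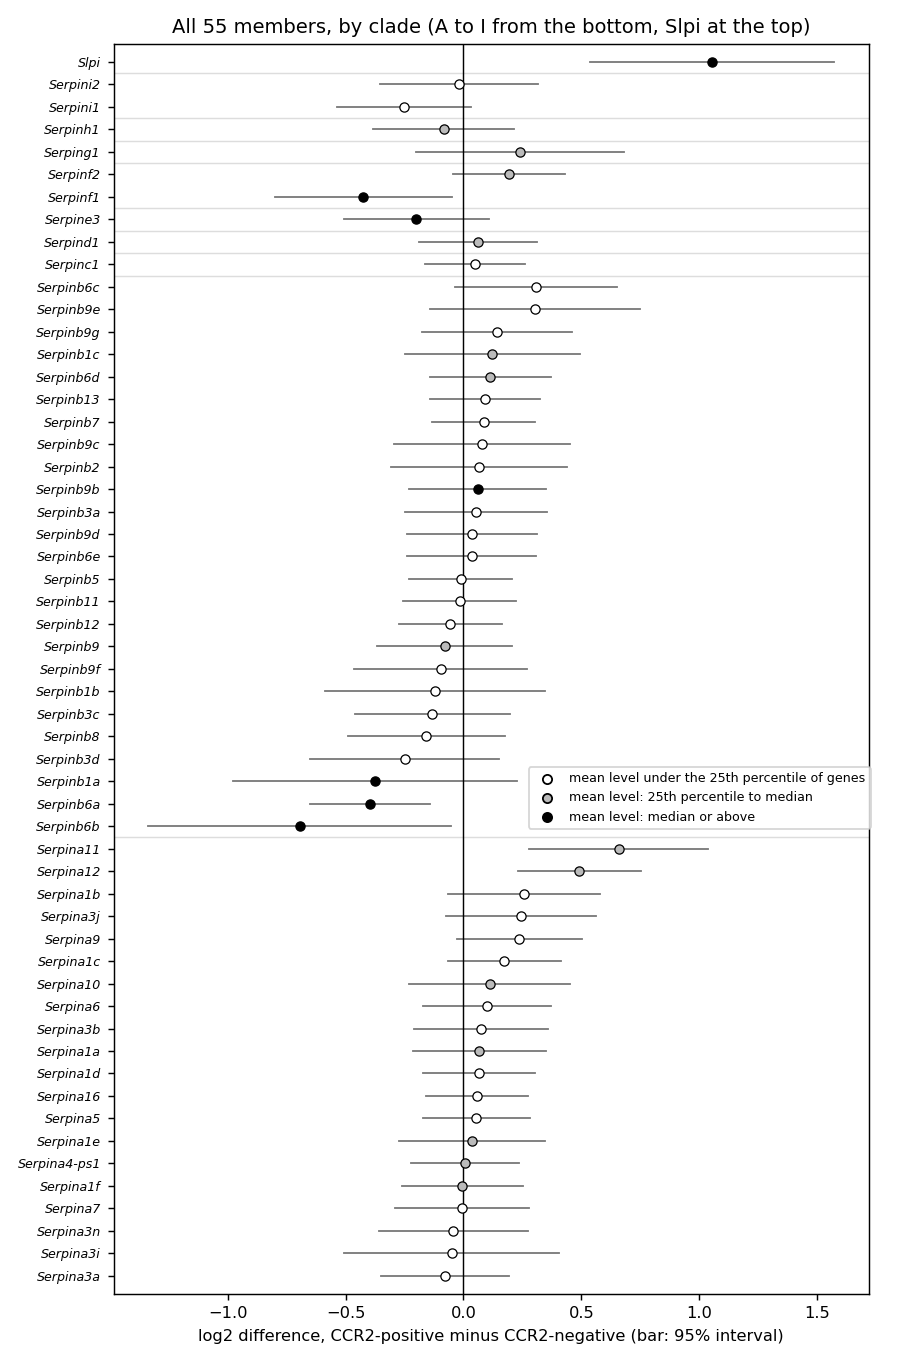
Differences (CCR2+ minus CCR2-, log2) of all 55 genes with 95% intervals, grouped by clade from A at the bottom to I, with Slpi at the top and the fill giving the mean level. The intervals of 6 genes leave out 0, and all 6 have a mean level over the 6 pools at or above the 25th percentile (4.66). Serpina12 reaches that level only with its CCR2+ pools, since its CCR2- mean is 4.55.

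Clade A, named after alpha-1-antitrypsin, holds 20 measured genes, of which 15 were higher and 5 lower, with a median of 0.07; cyclic loess gave 10 and 10, with a median of 0.0078. All but Serpina7, the thyroxine-binding globulin gene, lie on chromosome 12. Serpina11, a clade member of less studied function, gave 4.82, 4.91 and 5.27 in CCR2- and 5.48, 5.95 and 5.55 in CCR2+ pools. Every CCR2+ pool was above every CCR2- pool, the closest being CCR2- replicate 3. The difference was 0.66 ± 0.17 (95% interval 0.28 to 1.04), or 1.58-fold higher, with a p of 0.0037 and an adjusted p of 0.216 (limma). Without any single pool it stayed between 0.51 and 0.79.

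Serpina12 encodes vaspin, a serpin first described in visceral fat that inhibits kallikrein. Its values were 4.61, 4.39 and 4.64 in CCR2- and 4.94, 5.05 and 5.13 in CCR2+ pools, again without overlap and with the pools of each kind close to each other. The difference was 0.49 ± 0.11 (95% interval 0.23 to 0.75), 1.41-fold higher, with a p of 0.00223 and an adjusted p of 0.187 (limma). The CCR2- mean of Serpina12 (4.55) lay under the 25th percentile of all gene means (4.66). Serpina11 and Serpina12 are near neighbours, with Serpina9 between them. Serpina9, known from germinal centre B cells, differed by 0.24 ± 0.12. Of the 10 measured protein-coding neighbours of Serpina11, 9 were above 0, but Serpina12 alone had an unadjusted p under 0.05, and the others ran from -0.08 to 0.26.

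**Figure D4:**
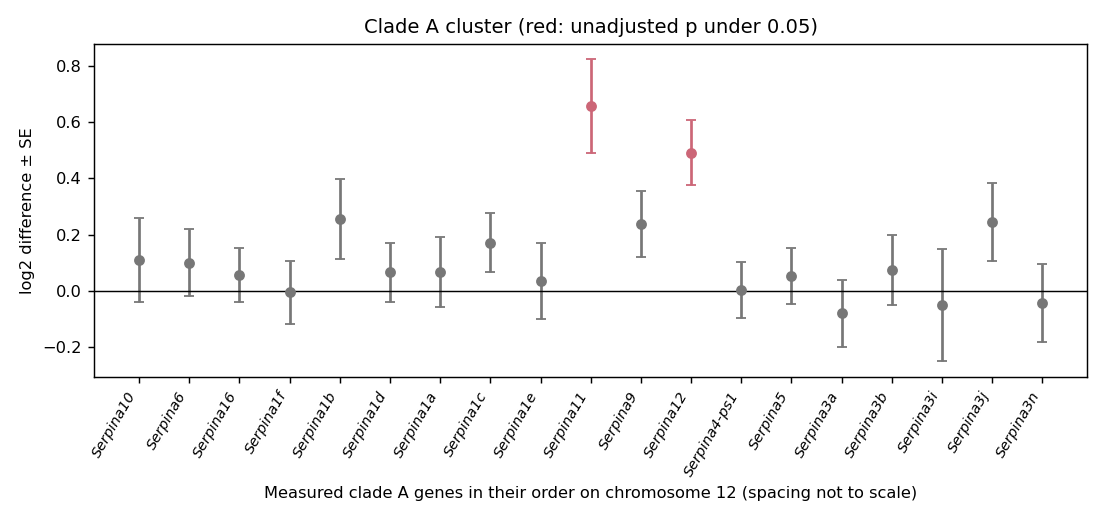
Differences (CCR2+ minus CCR2-, log2, ± SE) of the 19 measured clade A genes of chromosome 12 in their order along the chromosome, with spacing not to scale. Serpina11 and Serpina12 (red) stand above the other 17 genes, which lie between -0.08 and 0.26.

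The alpha-1-antitrypsin gene, which in humans is a single gene that guards the lung against neutrophil elastase, has several copies in mice. Serpina1a gave 4.91, 4.79 and 4.61 in CCR2- and 5.00, 4.79 and 4.72 in CCR2+ pools, a difference of 0.07 ± 0.12, and its pools overlapped. Serpina1c gave 3.60, 3.54 and 3.37 in CCR2- and 3.66, 3.71 and 3.64 in CCR2+ pools, a difference of 0.17 ± 0.10 with no overlap and a p of 0.137 (adjusted p 0.54, limma). Without CCR2- replicate 3 Serpina1c came to 0.10. Serpina1b had the largest difference of the copies, 0.26 ± 0.14 with a p of 0.106 (adjusted p 0.5, limma) and overlapping pools. Over the 6 measured copies, 5 were above 0 and the median was 0.07, whereas cyclic loess put 3 above and 3 below 0, with Serpina1a below. These copies are close in sequence, so their probe sets may read each other's transcripts and their separate values are uncertain.

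The Serpina3 copies are related to alpha-1-antichymotrypsin, an inhibitor of cathepsin G. Serpina3n, an acute-phase gene, gave 4.62, 4.31 and 4.76 in CCR2- and 4.41, 4.50 and 4.65 in CCR2+ pools, a difference of -0.04 ± 0.14 with overlapping pools. Serpina3j had the largest difference of the copies, 0.24 ± 0.14 with a p of 0.114 (adjusted p 0.511, limma). Of the 5 measured copies 2 were higher and 3 lower, with a median of -0.04, and the same caution about near-identical copies holds. Other clade A genes encode binding and clotting proteins. Serpina6, the corticosteroid-binding globulin gene, differed by 0.10 ± 0.12. Serpina5, the protein C inhibitor gene, differed by 0.05 ± 0.10, and Serpina10, the protein Z-dependent inhibitor gene, by 0.11 ± 0.15.

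Clade B, the mainly intracellular serpins, holds 25 measured genes, of which 13 were higher and 12 lower, with a median of 0.03, and with cyclic loess 11 and 14, with a median of -0.0038. Both genes of the clade that had an unadjusted p under 0.05 were Serpinb6 copies and both were lower. Serpinb6a, an intracellular inhibitor of cathepsin G, gave 6.57, 6.78 and 6.49 in CCR2- and 6.19, 6.27 and 6.20 in CCR2+ pools. The 3 CCR2+ pools lay close together and below every CCR2- pool. The difference was -0.40 ± 0.11 (95% interval -0.65 to -0.14), 1.32-fold lower, with a p of 0.00667 and an adjusted p of 0.243 (limma). Without any single pool it stayed between -0.46 and -0.31.

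Serpinb6b, a rodent relative of Serpinb6a, gave 5.70, 6.94 and 5.92 in CCR2- and 5.60, 5.50 and 5.38 in CCR2+ pools. The pools did not overlap, but CCR2- replicate 2 stood more than 1 log2 unit above the other CCR2- pools. The difference was -0.70 ± 0.28 (95% interval -1.34 to -0.05), 1.62-fold lower, with a p of 0.0372 and an adjusted p of 0.374 (limma). Without CCR2- replicate 2 it was -0.32. The remaining Serpinb6 copies were higher: Serpinb6c differed by 0.31 ± 0.15, Serpinb6d by 0.11 ± 0.11 and Serpinb6e by 0.03 ± 0.12, although cyclic loess left 2 of the 5 copies above 0. These copies are also close in sequence, and signal from 1 copy on the probes of another cannot be told apart here.

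Serpinb1a, the neutrophil inhibitor of elastase, proteinase 3 and cathepsin G, showed the same high pool. Its values were 6.78, 7.92 and 6.93 in CCR2- and 6.81, 6.87 and 6.83 in CCR2+ pools, with CCR2- replicate 2 again the highest and the other 5 pools close together. The difference was -0.37 ± 0.26 (95% interval -0.98 to 0.23, p 0.191, limma), and without CCR2- replicate 2 it was -0.02. Of the other Serpinb1 copies, Serpinb1b differed by -0.12 ± 0.20 and Serpinb1c by 0.12 ± 0.16.

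Serpinb9 inhibits granzyme B and protects killer cells from their own granules. It gave 5.84, 5.74 and 5.77 in CCR2- and 5.63, 5.54 and 5.94 in CCR2+ pools, a difference of -0.08 ± 0.13 with overlapping pools. Over its 7 measured copies 5 were higher and 2 lower, with a median of 0.06 (4 and 3 with cyclic loess). Serpinb9b, the copy with a second probe set, differed by 0.06 ± 0.13 on one probe set and by 0.11 ± 0.12 on the other. Serpinb2, the plasminogen activator inhibitor of activated macrophages, gave 4.05, 4.09 and 4.59 in CCR2- and 4.25, 4.19 and 4.49 in CCR2+ pools, a difference of 0.07 ± 0.16. Serpinb8, an inhibitor of furin, gave 4.54, 4.75 and 4.54 in CCR2- and 4.53, 4.16 and 4.66 in CCR2+ pools, a difference of -0.16 ± 0.15 that came to -0.014 without CCR2+ replicate 2. The pools of both genes overlapped. The clade B genes lie in clusters on chromosome 1 (10 measured, 4 higher, median -0.01) and chromosome 13 (15 measured, 9 higher, median 0.04, or 7 higher with cyclic loess). The 3 Serpinb3 copies, related to the squamous cell carcinoma antigens, ran from -0.25 to 0.05.

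Among the remaining clades, Serpinf1 was the gene with an unadjusted p under 0.05. It encodes pigment epithelium-derived factor, a secreted serpin that does not inhibit proteases and restrains blood vessel growth. Its values were 8.04, 7.54 and 7.82 in CCR2- and 7.46, 7.11 and 7.55 in CCR2+ pools. The second CCR2- pool lay just below the highest CCR2+ pool, so the groups overlapped. The difference was -0.43 ± 0.16 (95% interval -0.80 to -0.05), 1.34-fold lower in CCR2+ pools, with a p of 0.0307 and an adjusted p of 0.357 (limma). Without any single pool it stayed between -0.56 and -0.29. On chromosome 11 Serpinf1 lies next to Serpinf2, which encodes alpha-2-antiplasmin, the main plasma inhibitor of plasmin. Serpinf2 gave 5.03, 4.94 and 5.11 in CCR2- and 5.21, 5.14 and 5.31 in CCR2+ pools. Here every CCR2+ pool was above every CCR2- pool, by a difference of 0.19 ± 0.10 with a p of 0.101 (adjusted p 0.493, limma). The 2 adjoining genes of clade F thus differed in opposite directions, though only Serpinf1 had an unadjusted p under 0.05. Of the 10 measured neighbours of Serpinf1, 7 were above 0, 1 had an unadjusted p under 0.05, and the range was -0.57 to 0.22. That 1 was Smg6, lower by a difference of -0.57 ± 0.10 with a p of 0.000508.

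The clades C, D and G hold clotting and complement serpins of plasma. Serpinc1, which encodes antithrombin, gave 4.11, 4.16 and 4.18 in CCR2- and 4.19, 4.20 and 4.22 in CCR2+ pools. Its pools did not overlap, although the difference was only 0.05 ± 0.09. Serpind1, which encodes heparin cofactor II, gave 5.11, 5.22 and 5.34 in CCR2- and 5.19, 5.30 and 5.37 in CCR2+ pools, a difference of 0.06 ± 0.11 with overlap. Serping1, which encodes the C1 inhibitor of complement and kallikrein, gave 4.88, 4.67 and 4.65 in CCR2- and 4.79, 4.69 and 5.44 in CCR2+ pools. CCR2+ replicate 3 was well above the other 5 pools, and the difference of 0.24 ± 0.19 came to 0.0054 without it.

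Serpinh1 encodes a collagen chaperone of the endoplasmic reticulum, a serpin that inhibits no protease. It gave 5.65, 5.37 and 5.71 in CCR2- and 5.44, 5.67 and 5.38 in CCR2+ pools, a difference of -0.08 ± 0.13 with overlap, or -0.02 without CCR2- replicate 3. Serpini1 encodes neuroserpin, an inhibitor of tissue plasminogen activator. It gave 4.39, 4.48 and 4.35 in CCR2- and 4.38, 3.99 and 4.10 in CCR2+ pools, a difference of -0.25 ± 0.12 with a p of 0.0751 (adjusted p 0.451, limma), and the first CCR2+ pool lay within the CCR2- range. Serpini2 differed by -0.02 ± 0.15 and Serpine3 by -0.20 ± 0.13.

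The proteases that these inhibitors meet were read from a list of 38 serine proteases of granules, blood and membranes, of which 36 were measured. Of these, 29 were higher and 7 lower (median 0.09), or 25 and 11 with cyclic loess (median 0.05), beside 56.0% of all genes above 0. There were 3 that were higher at an unadjusted p under 0.05 and none that was lower. The granule proteases of neutrophil precursors that Serpinb1a blocks showed no shared direction. The genes of elastase and cathepsin G, which Slpi also blocks, were above 0, and that of proteinase 3 was below. Elane (elastase) gave 6.66, 8.05 and 7.75 in CCR2- and 7.25, 8.91 and 6.89 in CCR2+ pools, a difference of 0.20 ± 0.52. Ctsg (cathepsin G) gave 7.15, 9.07 and 7.95 in CCR2- and 7.38, 9.32 and 8.12 in CCR2+ pools, a difference of 0.22 ± 0.55. Prtn3 (proteinase 3) gave 7.57, 7.79 and 7.47 in CCR2- and 7.41, 7.82 and 7.05 in CCR2+ pools, a difference of -0.19 ± 0.19. The pools overlapped for all 3, and each changed sign on leaving out 1 pool: without CCR2+ replicate 2 Elane came to -0.42 and Ctsg to -0.30, and without CCR2+ replicate 3 Prtn3 came to 0.0026.

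Mcpt8, a basophil protease, had the highest difference of all 22180 genes. It gave 5.89, 6.41 and 6.36 in CCR2- and 5.96, 8.76 and 9.09 in CCR2+ pools, so that 2 CCR2+ pools were far above all others and the first lay within the CCR2- range. The difference was 1.71 ± 0.70 (adjusted p 0.375, limma). Without CCR2+ replicate 1 it was 2.70 with an adjusted p of 0.0222 (limma), in a setting in which 2 genes in all passed; without CCR2+ replicate 3 it was 1.14, and with array weights 0.94. Slpi did not follow this pattern, since its first CCR2+ pool was high and its replicate 3 the lowest of the CCR2+ pools. The other proteases with an unadjusted p under 0.05 were F12, the clotting factor that Serping1 inhibits (0.26 ± 0.10), and Gzmb, the granzyme that Serpinb9 inhibits (0.29 ± 0.12, or 0.19 without CCR2+ replicate 3).

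A list of serine protease inhibitors of other families, which also holds heavy chains of the inter-alpha-trypsin inhibitor, was split. Of 32 measured, 20 were higher and 12 lower (median 0.07, or 17 and 15 with cyclic loess), with 3 higher and 2 lower at an unadjusted p under 0.05. Itih5, an inter-alpha-trypsin inhibitor heavy chain that binds hyaluronan, gave 8.31, 7.90 and 7.92 in CCR2- and 7.33, 7.05 and 7.35 in CCR2+ pools. It was lower in every CCR2+ pool, by a difference of -0.80 ± 0.15 and an adjusted p of 0.177 (limma). Relatives of Slpi with whey acidic protein domains differed both ways: Wfdc2 by -0.33 ± 0.13, Wfdc3 by 0.29 ± 0.11 and Wfdc15a by 0.25 ± 0.10. The pools of these 3 genes did not overlap.

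Receptors and cofactors of serpins and their proteases were measured in 14 of 15 cases, with 7 higher and 7 lower (median -0.02), 2 higher and 3 lower at an unadjusted p under 0.05. Vldlr, a lipoprotein receptor that takes up serpin and protease complexes, gave 6.00, 6.29 and 6.16 in CCR2- and 5.72, 5.40 and 5.64 in CCR2+ pools. It was lower in every CCR2+ pool, by -0.56 ± 0.13 (adjusted p 0.183, limma). Pnpla2, a lipase reported as a receptor of the Serpinf1 protein, gave 8.07, 7.50 and 7.60 in CCR2- and 7.28, 7.30 and 7.15 in CCR2+ pools and was likewise lower in every CCR2+ pool, by a difference of -0.48 ± 0.15 (adjusted p 0.283, limma). Without CCR2- replicate 1 it was -0.31. Procr, the endothelial protein C receptor and also a stem cell marker, differed by -0.37 ± 0.13, and F2rl2, a protease-activated receptor, by 0.45 ± 0.16, or 0.30 without CCR2- replicate 2. Lrp1, another receptor of this list, was the other gene that was higher at that threshold. It differed by 0.25 ± 0.11, and its pools did not overlap.

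The collagens and collagen-modifying enzymes that Serpinh1 serves gave 9 higher and 8 lower of 17 (median 0.01, or 6 and 11 with cyclic loess), with 1 of each at an unadjusted p under 0.05. These were Col1a2, which gave 6.08, 6.06 and 6.14 in CCR2- and 5.68, 5.49 and 5.74 in CCR2+ pools (-0.45 ± 0.11), and Col2a1 (0.25 ± 0.11). The value of Col1a2 depended on its probe set: the mean of the gene's probe sets gave -0.18 (adjusted p 0.525, limma). Cathepsins outside the serine class, some of which serpins inhibit, were measured in 5 of 6 cases. Of these, 2 were higher and 3 lower (median -0.01), with none at an unadjusted p under 0.05.

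Serpin genes of the RefSeq table without a probe set that lists them alone are named only and were not analysed here. Among them are the clade B genes Serpinb3b, Serpinb9h and Serpinb10 and the clade A genes Serpina3c, Serpina3f, Serpina3g, Serpina3k and Serpina3m.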

How the data were processed

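Total RNA of each pool (5 ng) was extracted with PicoPure, amplified with Ovation Pico WTA and biotin-labelled, per the labels' protocols. The authors deposited log2 values made with RMA, per the submitters' processing notes, with a version and settings not given in the sources used here. Detection calls were not used. Of 41345 probe sets, 23521 list 1 gene in the platform annotation, 1814 several and 16010 none. The 1-gene probe set with the highest mean stood for each of 22180 genes, and all 55 members matched RefSeq by gene number.

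CCR2+ and CCR2- pools were compared with limma 3.58.1 in R 4.3.3 (lmFit, eBayes) on all genes, with Benjamini-Hochberg adjustment over all genes. The fit was tested on simulated data. The median SE of a difference was 0.127, and the number of arrays limits precision. The members and the 15 lists were chosen with earlier results of these data known. Values are given per pool for members with an unadjusted p under 0.05, without overlap or differing by 0.4 or more. They are also given for fixed members of known role, and for Elane, Prtn3 and Ctsg. Up to 4 genes of a list were named by rule, some with values per pool and others with the difference only. Ltf, Camp, Mmp8, Mmp9, Lrp1 and Smg6, and the extremes of the Serpina1 and Serpina3 copies, were named after their values were seen. Some genes stand in several lists, among them Mcpt8, Gzmb, Procr and Col1a2. RefSeq promoter windows were matched by symbol for 48 members. Alternatives covered the choice of probe set, low-level filters, scaling, the replicate block, array weights, eBayes settings, p thresholds and each pool left out.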

Additional observations from a re-analysis of the deposited data

How the results depend on the processing

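No member passed an adjusted p of 0.05 under any alternative run, and Slpi, Serpina11, Serpina12, Serpinf1, Serpinb6a and Serpinb6b kept their direction in all of those in which they were fitted. The adjusted p of Slpi ranged from 0.0965 (array weights) to 0.491 (without CCR2- replicate 1). With genes under the 25th percentile left out, 13 members were higher and 8 lower, and the clade B median was -0.079. With genes under the median left out, 2 of the 7 members kept were higher and 5 lower. At an unadjusted p under 0.05, 1 member was higher and 3 were lower, beside 401 genes higher and 1123 lower among all genes kept. Without overlap, 1 of these 7 members was higher and 2 were lower. The share without overlap over all genes kept was not computed, so this is a count only. The member median was -0.37 and that of clade B -0.39, against -0.033 for all genes kept. No clade A gene is left there. Cyclic loess gave a member median of -0.0038, Serpina1a at -0.0070 and Serpind1 at -0.0092. Array weights gave Serpinb2 at -0.022. At an unadjusted p of 0.01, 3 of the 55 members were higher and 1 lower, beside 282 of the 22180 genes higher and 539 lower. At 0.1, 5 of the 55 were higher and 4 lower, beside 2342 of the 22180 genes higher and 2165 lower.

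Leaving out 1 pool gave 3 to 5 members higher and 1 to 4 lower at an unadjusted p under 0.05 (all genes, 3.78% to 6.57% higher and 4.79% to 7.11% lower), 7 to 14 higher (12.7% to 25.45% of members, against 15.3% to 19.0% of all genes) and 3 to 6 lower (5.45% to 10.9%, against 11.4% to 13.7%) without overlap, and 0 to 2 genes past an adjusted p of 0.05. The 5 and 14 higher and the 1 lower came without CCR2+ replicate 2, the 6 lower without CCR2+ replicate 3, and fewer pools leave less room for overlap. Differences that changed sign ran from -0.031 to 0.24 for Serpinb2, -0.015 to 0.14 for Serpina1a, -0.17 to 0.055 for Serpina3n, -0.20 to 0.0021 for Serpinb9, -0.42 to 0.59 for Elane, -0.38 to 0.0026 for Prtn3 and -0.30 to 0.72 for Ctsg. The cause was not tested. Replicate numbers are shared between groups, but same-numbered pools deviated together only weakly (r of 0.035, 0.089 and 0.045). With the replicate block, 3 members were higher and 3 lower at an unadjusted p under 0.05, 0 genes passed an adjusted p of 0.05 (1299 higher and 1636 lower unadjusted), and Slpi had an adjusted p of 0.205.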
